A study of Mus musculus with 8 samples.

Results

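Line 1 and line 3 are mouse induced pluripotent stem (iPS) cell lines, made by returning somatic cells to pluripotency, and they differed in the expression of 198 genes. Known targets of the response to low oxygen, simple keratins, annexins and actin-associated genes were among those higher in line 1. A smaller set was higher in line 3 and included the de novo DNA methyltransferases and Usp17la, a gene known from the 2-cell-like state. Only 9 of the 198 genes kept their call in all 17 alternative analyses, and the methyltransferases and Usp17la were not among them. The comparison takes the 2 arrays titled for iPS cell line1 against the 2 titled for iPS cell line3, 4 of the 8 arrays in the series, and covers 14004 genes drawn from 34945 probe sets that carry 1 gene symbol, of 45101 on the array. The other 4 arrays, 2 of an embryonic stem (ES) cell control and 2 of iPS cell line2, enter the estimate of the spread and serve as reference levels. Per the labels, both lines are C57BL/6, male and free of integrated vector, each is described as 1 line, and cells were taken at passage 7 to 10 from N2B27 medium with mouse leukaemia inhibitory factor (LIF). ES control and line 2 share strain, sex, passage range and medium. The array titles speak of biological replicates, and nothing in the labels says whether the 2 arrays of a line came from separate cultures, so the p-values rest on array-to-array spread that may be partly technical.

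Pluripotent cells are held in that state by a network around Oct4 (Pou5f1), Sox2 and Nanog. When oxygen is short, the hydroxylases Egln1 and Egln3 no longer mark the alpha subunits of hypoxia-inducible factor (HIF) for destruction, and HIF then raises genes for glucose uptake, glycolysis, mitophagy and blood vessel growth. Cultured ES and iPS cells of mice express simple epithelial keratins at low level, and rare cells in such cultures switch on transcripts of the 2-cell embryo.

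The labelled cell type was checked against its markers. All 12 pluripotency markers were above the low-signal floor of 37.1, the 40th percentile of all signals, in each of the 4 arrays, and their summed signal lay between 107300 and 111800. Of 12 fibroblast markers 7 were measured, with 5 and 4 of them above the floor in the arrays of line 1 and 3 in each array of line 3. Their summed signal ran from 7387 to 7411 in line 1 and from 8031 to 9315 in line 3. Most of that sum was vimentin (Vim), at 7126 and 7179 in line 1 against 7807 and 9119 in line 3, while Lum and Prrx1 were below the floor in all 4 arrays. Median signals of the 4 arrays lay between 54.1 and 59.1, and 58.1% to 60.6% of probe sets exceeded the floor. The 3'/5' ratio of the beta-actin control probes was at most 1.57 in line 1 and was 1.59 and 1.60 in line 3, and its part in the differences was not tested.

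Signals are linear intensities, and every difference below is line 1 minus line 3 on the log2(signal + 12) scale with its standard error (SE) from limma, a scale that compresses the differences of dim genes. A gene was called where limma gave an adjusted p under 0.05 (Benjamini-Hochberg over 14004 genes). On this rule 198 genes were called, 1.41% of those tested. Of these, 149 were higher in line 1 (1.06%) and 49 were higher in line 3 (0.35%), and 28 and 11 of them differed at least 2-fold. In all 198 called genes both arrays of one line lay above both arrays of the other, as they did in 3345 genes with line 1 on top (23.9%) and 2785 with line 3 on top (19.9%) of those tested. Median absolute differences were 0.151 over all genes and 0.537 over the called ones. Array means were at least 2-fold apart between the lines in 372 genes, while 789 genes were that far apart between the replicates of line 1 and 806 between those of line 3. The first count compares means of 2 arrays and the others single arrays, which vary more, so the counts are unlike measures. Leaving out any 1 of the 4 arrays lowered the count of calls to between 52 and 94, and dropping the intensity trend from limma's variance lowered it to 17. Each array measures RNA of a bulk sample, so more cells of one kind and more RNA per cell cannot be told apart.

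**Figure D1:**
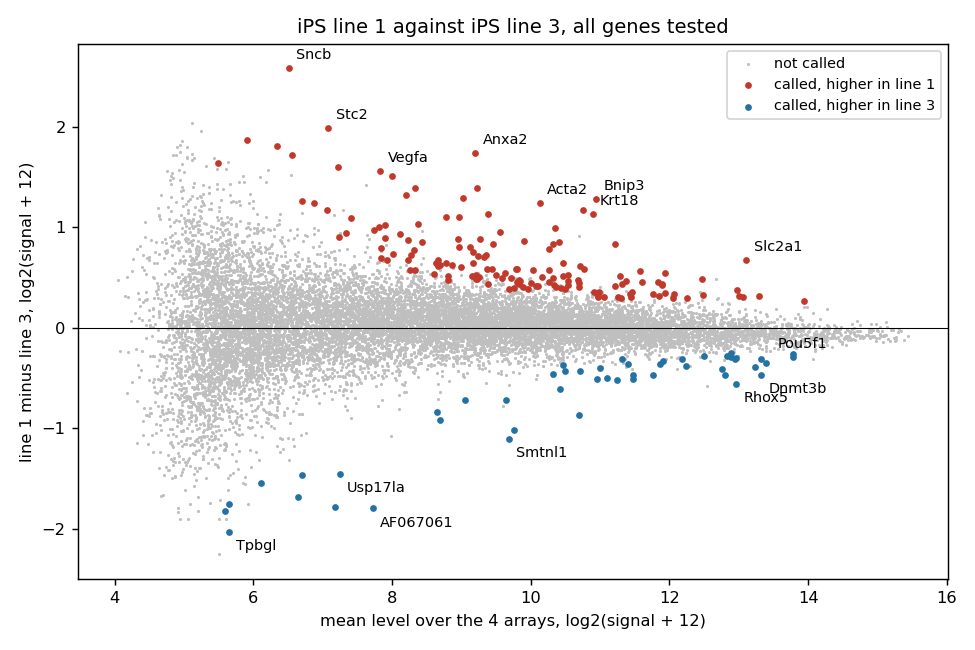
Each point is a gene, with its mean level over the 4 arrays on the x axis and the line 1 minus line 3 difference on the y axis, both as log2(signal + 12). Red and blue points are the 149 and 49 called genes; many dim genes at the left lie far from 0 without being called.

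Genes of glycolysis and of the hypoxia response were higher in line 1. Their list, like each of the 37 gene lists, was drawn up with earlier results of these data known. Of 28 measured members of this list, 15 were called higher in line 1 and 0 higher in line 3, or 53.6% against the 1.41% called over all genes. In 24 of the 28 both arrays of line 1 lay above both of line 3, beside 23.9% of all genes, and in 2 below. The median difference was 0.46, beside 0.0154 over all genes tested. Calls numbered 11 to 13 when 1 array was left out and 5 without the variance trend. Of the 33 listed symbols, 5 had no measured gene: Gpi1, Gapdh, Eno1, Bnip3l and Ero1l, the last an older symbol of Ero1a.

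Vegfa, the secreted growth factor that drives blood vessel growth, had signals of 374 and 382 in line 1 against 103 and 140.3 in line 3. The 2 arrays of line 1 were close to each other and far above both arrays of line 3, a difference of 1.56 ± 0.19 (SE, adjusted p = 0.00113, limma). Ankrd37, a small ankyrin-repeat gene known as a HIF target, had 416 and 418 in line 1 against 146 and 132 in line 3, a 2.84-fold difference (SE of 0.13 on the log2 scale, adjusted p = 6.69e-05, limma). Ndrg1, a stress-responsive gene induced when oxygen is low, read 809 and 795 in line 1 against 319 and 324 in line 3 and differed by 1.29 ± 0.09 (SE, adjusted p = 1.71e-05, limma). For Ankrd37 and Ndrg1, as for Vegfa, the replicates of a line lay much closer together than the lines did. The call of Ndrg1 was lost when probe sets marked as shared between transcripts were left out.

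Bnip3, a mitochondrial outer membrane protein that triggers mitophagy, combined a bright signal with tight replicates, 3085 and 3017 in line 1 against 1244 and 1259.6 in line 3, and line 1 was 2.42-fold above line 3 (1.28 ± 0.069 SE, adjusted p = 3.18e-06, limma). Ero1a, the oxidase that renews disulfide bonding capacity in the endoplasmic reticulum, gave 1926 and 1728 in line 1 against 900.1 and 924 in line 3 (0.99 ± 0.075 SE, adjusted p = 2.58e-05, limma). Neither gene showed any overlap between the lines, which holds for all 198 called genes.

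Both oxygen-sensing prolyl hydroxylases on the list, Egln3 and Egln1, were called. Signals of Egln3 were 636 and 627 in line 1 against 277 and 298 in line 3, a 2.15-fold difference, and those of Egln1 were 655 and 585 in line 1 against 432 and 376 in line 3, a 1.52-fold difference whose call was lost in 3 of the 4 fits that left out an array (adjusted p 0.0351 to 0.153, limma). The related Egln2, outside the list, read 775 and 683 in line 1 against 859 and 855 in line 3 and did not pass the test (adjusted p = 0.345, limma). P4ha1, the catalytic subunit of collagen prolyl 4-hydroxylase, was 2.01-fold higher in line 1, with 297 and 313 in line 1 against 137 and 156 in line 3. Its paralogue P4ha2 did not pass the test at 129.6 and 189 in line 1 against 114 and 71.4 in line 3 (adjusted p = 0.221, limma). The replicates of P4ha2 were spread more widely than those of P4ha1. Ddit4, an inhibitor of mTORC1, was 1.81-fold higher in line 1 with 1764 and 1849 in line 1 against 969 and 1018 in line 3.

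Genes of glucose uptake and breakdown were part of the same list. Slc2a1, the widespread glucose transporter, read 10698 and 11598 in line 1 against 6716 and 7286 in line 3 (0.67 ± 0.063 SE, adjusted p = 0.000162, limma). Aldoc, an aldolase isoform, was 1.78-fold higher in line 1, Hk1, a hexokinase, 1.64-fold and Pfkp, the platelet-type phosphofructokinase, 1.43-fold. Tpi1 and Pgk1, enzymes of the middle of glycolysis, were called at 1.3-fold and 1.2-fold. Leaving out single arrays ended the call of Pgk1 in all 4 fits (adjusted p 0.0701 to 0.285, limma), of Tpi1 in 3 (0.0417 to 0.0576) and of Pfkp in 2 (0.0259 to 0.178), and the call of Pgk1 was lost in 11 of 17 alternatives in all. With all probe sets averaged, Hk1 differed by 0.34 (adjusted p = 0.344, limma). Several other enzymes and the second glucose transporter did not pass the test: Slc2a3 differed by 0.18 ± 0.068 (SE), Aldoa by 0.20 ± 0.06, Ldha by 0.15 ± 0.059, Pkm by 0.13 ± 0.063 and Hk2 by 0.12 ± 0.056. In each of these 5 genes both arrays of line 1 were the higher ones, a placing found in 23.9% of all genes. Of the 28 members 3 had a negative difference, and none of the 3 was called. Pdk1, which inhibits pyruvate dehydrogenase, differed by -0.16 ± 0.082 (SE), the histone demethylase Kdm3a by -0.27 ± 0.063 and the carbonic anhydrase Car9 by -0.46 ± 0.45, with signals of Car9 near the floor (35.6 and 20.7 in line 1 against 25.9 and 65.6 in line 3).

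**Figure D2:**
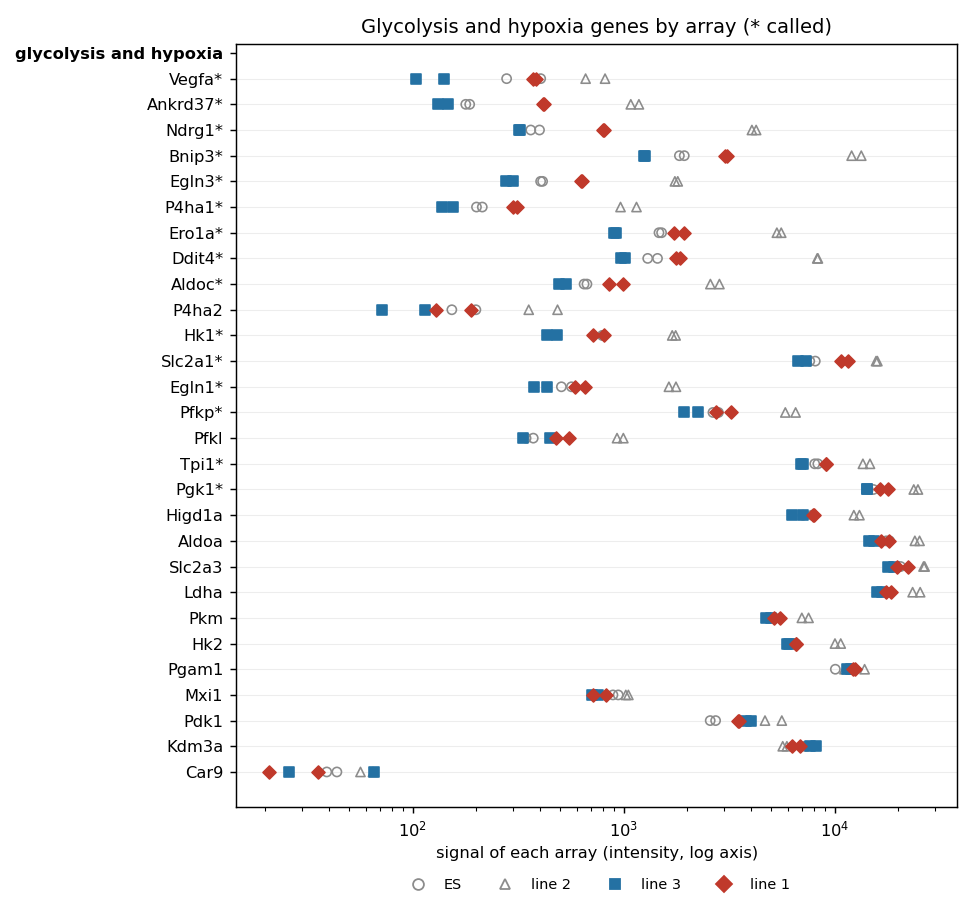
Signals of the 28 measured glycolysis and hypoxia genes in each array, on a log axis of intensity, ordered by the line 1 minus line 3 difference from the largest at the top. Line 1 is in red and line 3 in blue, with ES cells and line 2 as open grey circles and triangles. The 15 called genes are starred, and in each of them line 3 is the lowest group and line 2 the highest. Line 3 had the lowest mean in 123 of all 149 genes called higher in line 1.

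The ES and line 2 arrays place these levels. In all 15 called members both arrays of line 3 were below both ES arrays. In 12 both arrays of line 1 were above both ES arrays, and in all 15 both arrays of line 2 were above both of line 1. Among all 149 genes called higher in line 1 these 3 placings held in 119, 98 and 105. List medians against ES cells were 0.159 for line 1, -0.244 for line 3 and 1.06 for line 2, and all 3 values share the same ES arrays. For Bnip3, the ES arrays read 1838 and 1938 and the line 2 arrays 13391 and 12054. The transcripts of the HIF subunits themselves did not pass the test. Hif1a read 5342 and 5268 in line 1 against 5342 and 5401 in line 3 and the 95% interval of its difference ran from -0.14 to 0.11. Epas1, the second alpha subunit, differed by -0.052 ± 0.064 (SE), the partner subunit Arnt by -0.032 ± 0.099 and Vhl, the recognition part of the ligase that removes HIF, by 0.07 ± 0.1.

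Several called genes outside the list are also known to be induced by low oxygen, and were picked out after their values were seen. They include Stc2, a secreted glycoprotein, Bhlhe40, a transcriptional repressor, and Ndufa4l2, a mitochondrial protein. Bhlhe40 had 991 and 916 in line 1 against 388 and 327 in line 3 (1.39 ± 0.10 SE, adjusted p = 1.89e-05, limma). Ndufa4l2 was dim, with 69.0 and 66.1 in line 1 against 8.05 and 20.6 in line 3, at least 1.82-fold higher in line 1 when set against the floor (adjusted p = 0.0494, limma). Its call was lost in each fit that left out 1 array (adjusted p 0.0634 to 0.227, limma). Pgm1, which links glucose 1-phosphate to glycolysis, differed by 0.88, the lysyl hydroxylase Plod2 by 0.64, the adenylate kinase Ak4 by 0.57 and the mitochondrial protein Fam162a by 0.43, and all 4 were called. Plod2 lost its call in 2 fits that left out an array (adjusted p 0.0197 to 0.0624, limma) and Fam162a in 1 (0.0327 to 0.0502), and Fam162a differed by 0.052 (adjusted p = 0.924, limma) with its probe sets averaged.

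The promoters of 4 called genes with large differences that hold a motif known for their list are given here to set the sequence beside the signals. Each is the 250 bases before the annotated start in RefSeq on build GRCm38.p6, written 5′ to 3′ on the gene's own strand. In Ankrd37 (chr8:45999851-46000100, minus strand), Bnip3 (chr7:138909507-138909756, minus strand) and Ero1a (chr14:45318573-45318822, minus strand) capitals mark the core of the hypoxia response element, ACGTG on either strand. In Gbp2 (chr3:142620413-142620662, plus strand) they mark an interferon-stimulated response element, a pair of GAAA units with any 2 bases between them on either strand.
Ankrd37: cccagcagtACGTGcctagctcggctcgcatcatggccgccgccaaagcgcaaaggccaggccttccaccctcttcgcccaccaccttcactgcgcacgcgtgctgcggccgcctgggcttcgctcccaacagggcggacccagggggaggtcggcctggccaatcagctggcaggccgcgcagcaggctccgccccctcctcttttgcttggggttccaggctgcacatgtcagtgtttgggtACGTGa
Bnip3: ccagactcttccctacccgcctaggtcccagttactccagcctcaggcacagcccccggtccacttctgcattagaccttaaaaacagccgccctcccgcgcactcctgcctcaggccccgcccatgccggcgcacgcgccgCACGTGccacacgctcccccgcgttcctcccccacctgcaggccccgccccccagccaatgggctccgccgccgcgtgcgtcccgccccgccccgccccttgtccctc
Ero1a: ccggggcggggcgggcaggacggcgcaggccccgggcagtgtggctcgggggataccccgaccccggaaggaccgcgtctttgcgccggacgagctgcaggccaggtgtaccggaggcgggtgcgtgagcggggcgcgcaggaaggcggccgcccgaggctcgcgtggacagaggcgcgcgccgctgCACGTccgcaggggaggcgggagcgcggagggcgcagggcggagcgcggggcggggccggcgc
Gbp2: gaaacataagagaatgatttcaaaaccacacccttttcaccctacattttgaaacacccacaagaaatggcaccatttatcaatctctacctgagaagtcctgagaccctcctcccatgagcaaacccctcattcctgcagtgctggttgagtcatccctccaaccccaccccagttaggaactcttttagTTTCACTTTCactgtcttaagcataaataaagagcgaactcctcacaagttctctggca
The hypoxia core occurred 2 times in the Ankrd37 window, with the nearest match 6 bases and the other 241 bases before the start. In Bnip3 the 2 matches are the overlapping readings of 1 palindrome, 107 and 108 bases before the start, and in Ero1a the match lay 63 bases before it. Windows of this length held the core in 10 of 14 called and 18 of 26 measured glycolysis and hypoxia genes with a RefSeq promoter (71.4% and 69.2%), beside 24.4% of 11275 tested genes. The share was 30.8% among all called genes higher in line 1 and 24.3% among those higher in line 3. A match is a stretch of letters and not a measured binding site. The HIF target genes for this list were chosen from textbook knowledge, with earlier results of these data known. A high share of the core among them therefore describes the list.

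Epithelial keratins, annexins and junction genes were the next group. Of 25 measured members 8 were called higher in line 1 and 0 higher in line 3 (32%, beside 1.41% of all genes), and the median difference was 0.231. The called members were the simple keratins Krt8, Krt18, Krt19 and Krt7, the annexins Anxa2 and Anxa3, the desmosomal protein Dsp and the claudin Cldn7. Calls numbered 3 to 5 when 1 array was left out and 4 without the variance trend.

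Krt8 and Krt18, which pair to form the first keratin filaments of the embryo, differed by similar amounts. Krt8 read 2579 and 2593 in line 1 against 1179.5 and 1103 in line 3 (1.17 ± 0.077 SE, adjusted p = 1.03e-05, limma). Krt18 read 2841 and 2769 in line 1 against 1268 and 1283 in line 3 (1.13 ± 0.07 SE, adjusted p = 7.53e-06, limma). Replicates of both keratins lay within a few percent of each other in line 1, and the lines were more than 2-fold apart. Krt19 read 271 and 228 in line 1 against 81.6 and 67.0 in line 3 and was 3.03-fold higher in line 1, and Krt7 had 205 and 219.7 in line 1 against 105 and 105 in line 3. The calls of Krt19 (adjusted p 0.035 to 0.111, limma) and Krt7 (adjusted p 0.0576 to 0.092, limma) failed when single arrays were left out, that of Krt7 in all 4 such fits and that of Krt19 in 3. For Krt8, the 2 other probe sets of the gene differed by 1.09 and 1.21 in the same direction.

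Anxa2, a membrane-binding annexin that links to actin, showed the largest difference of the list, 1189 and 948 in line 1 against 260.1 and 369 in line 3 (1.74 ± 0.15 SE, adjusted p = 8.08e-05, limma). A second Anxa2 probe set, with a mean signal of 82.3, differed by 0.338 and was not called, and averaging both gave 1.04 (adjusted p = 0.0505, limma). Anxa3 read 467 and 454 in line 1 against 218 and 219.9 in line 3 and lost its call without the first array of line 1 (adjusted p 0.0272 to 0.0505 over the 4 fits, limma), while Anxa1 (0.16 ± 0.19 SE) and Anxa5 (0.21 ± 0.15 SE) did not pass the test. Dsp was 1.75-fold higher in line 1 and Cldn7 1.36-fold, and leaving out single arrays ended the call of Dsp in 3 fits (adjusted p 0.00396 to 0.0903, limma) and of Cldn7 in 4 (0.0895 to 0.172). The adhesion molecules that mark epithelial identity as a whole did not pass: Cdh1, E-cadherin, read 10849.9 and 11494 in line 1 against 10247 and 11442 in line 3, with a 95% interval of the difference from -0.098 to 0.19, and Epcam differed by 0.041 ± 0.058 (SE). Grhl2, an epithelial transcription factor, differed by -0.57 ± 0.16 (SE, adjusted p = 0.113, limma), opposite in sign to the keratins. In all 8 called members both arrays of line 1 were above both ES arrays, beside 98 of all 149 genes called higher in line 1. Line 2 was above line 1 in 5 of the 8 members, beside 105 of the 149, and below it in Krt8, Krt18 and Anxa3.

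Actin-associated genes best known from smooth muscle were higher in line 1 as well. Of 27 measured members 6 were called, all higher in line 1 (22.2%, beside 1.41% of all genes), with a median difference of 0.231. Calls numbered 2 to 3 when 1 array was left out and 1 without the variance trend. Acta2, smooth muscle actin, read 1669.5 and 1745 in line 1 against 719 and 710.1 in line 3 (1.24 ± 0.095 SE, adjusted p = 2.58e-05, limma). Tagln, an actin-bundling protein, read 935 and 1029 in line 1 against 512 and 380.3 in line 3 (1.13 ± 0.19 SE, adjusted p = 0.00964, limma) and lost its call in 3 of 4 fits that left out an array (adjusted p 0.0149 to 0.0989). Cald1, which binds actin and tropomyosin, was 1.82-fold higher in line 1, the tropomyosin Tpm1 1.44-fold, the LIM protein Csrp1 1.41-fold and its relative Fhl1 1.32-fold. The calls of Cald1 and Tpm1 were lost when all probe sets of a gene were averaged, and that of Tpm1 also without the first array of line 1 or of line 3 (adjusted p 0.0236 to 0.102 over the 4 fits, limma). Csrp1 (0.0788 to 0.119) and Fhl1 (0.0797 to 0.202) lost their call in all 4 of these fits.

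Line 1 had the highest mean of the 4 groups in all 6 called actin-associated genes, beside 35 of all 149 genes called higher in line 1. In Acta2 the ES arrays read 332 and 288 and the line 2 arrays 1173 and 1146, so line 3 was above ES cells and line 1 above every other array. Serum response factor (Srf), which drives many of these genes, differed by 0.046 ± 0.098 (SE) and did not pass the test. Other contractile genes gave dim or uneven signals, such as calponin Cnn1 with a difference of 1.24 ± 0.46 (SE, adjusted p = 0.236, limma). Of 20 measured fibroblast and mesenchymal genes 1 was called (5%, beside 1.41% of all genes). This was S100a6, a calcium-binding protein that read 478 and 502 in line 1 against 309.7 and 324 in line 3. It lost its call in all 4 fits without an array, where it differed by 0.577 to 0.646. The summed signal of the 7 measured fibroblast markers was lower in line 1 than in line 3, as given above, and was mostly Vim. Col1a2 was also lower in line 1 (-0.75 ± 0.37 SE). Thy1 (0.92 ± 0.51), Pdgfrb (0.61 ± 0.31), Lum (0.50 ± 0.74), Prrx1 (0.41 ± 0.63) and Twist1 (0.36 ± 0.47) were higher in line 1. Apart from Vim these markers were dim, and none of the 7 was called.

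**Figure D3:**
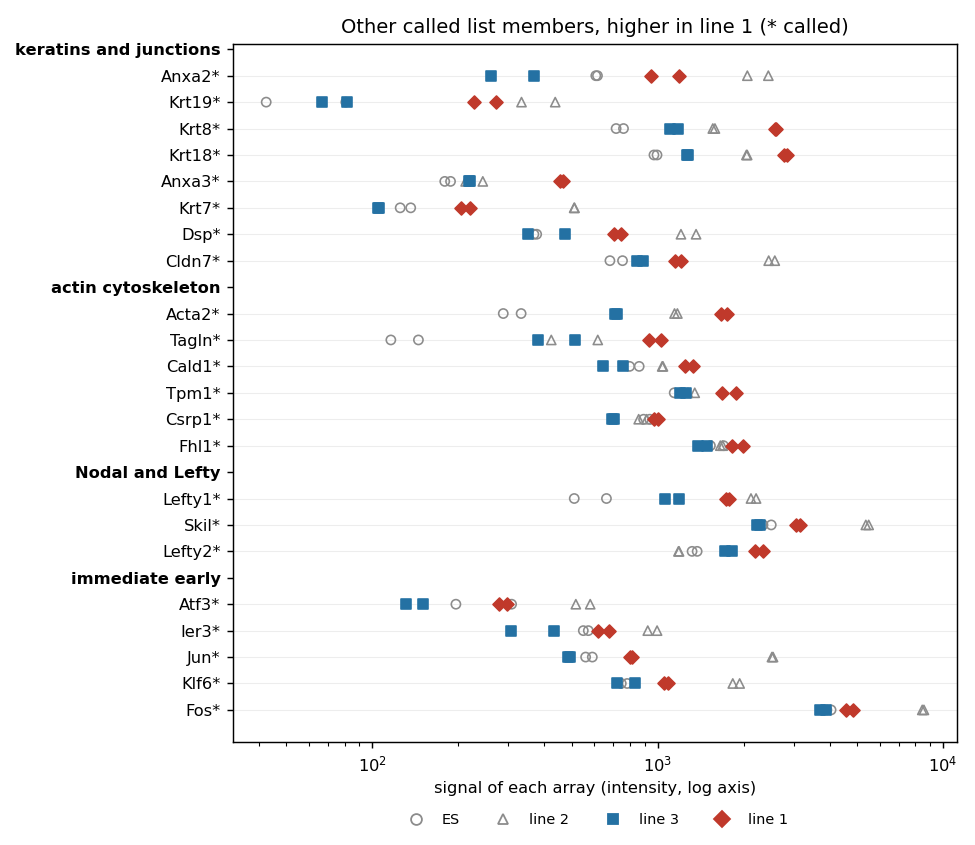
Signals of the called members of 4 lists (keratins and junctions, actin cytoskeleton, Nodal and Lefty, FGF and immediate early genes) in each array, on a log axis of intensity. Line 1 (red) lies to the right of line 3 (blue) in every gene shown, as it does in all 149 genes called higher in line 1. Line 2 (grey triangles) is highest in the 5 immediate early genes and below line 1 in the 6 actin-associated genes.

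Smaller groups also held calls for line 1. In Nodal and Lefty signalling 3 of 14 measured members were called, all higher in line 1 (21.4%, beside 1.41% of all genes). These were the Nodal antagonists Lefty1 (1739.5 and 1773 in line 1 against 1185 and 1060.3 in line 3) and Lefty2 (2197 and 2347 in line 1 against 1726 and 1816 in line 3) and the transcriptional corepressor Skil (3157 and 3055 in line 1 against 2275 and 2225 in line 3). Nodal itself, the ligand, differed by -0.19 ± 0.075 (SE) and its co-receptor Tdgf1 by 0.0063 ± 0.058, and neither passed the test. Leaving out 1 array left 0 to 2 of the 3 calls, and 0 were left without the variance trend. Lefty2 lost its call in all 4 fits without an array (adjusted p 0.11 to 0.205, limma), Lefty1 in 3 (0.0377 to 0.109) and Skil in the fit without the first array of line 1 (0.0259 to 0.0505). With all probe sets averaged, Skil differed by 0.24 (adjusted p = 0.431, limma).

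Among FGF signalling and immediate early genes 5 of 26 were called, all higher in line 1 (19.2%, beside 1.41% of all genes). All 5 belong to the immediate early response to stimulation: Jun, Fos, Atf3, Ier3 and Klf6. Jun, a subunit of the AP-1 transcription factor, read 811 and 797 in line 1 against 486 and 494 in line 3 (0.70 ± 0.085 SE, adjusted p = 0.00108, limma), and its partner Fos read 4817 and 4559.9 in line 1 against 3903 and 3718 in line 3. Egr1, another immediate early gene, read 2608 and 2669 in line 1 against 2881 and 3425 in line 3, a difference of -0.25 ± 0.086 (SE) that did not pass the test. The feedback inhibitors of FGF signalling Dusp6 (0.03 ± 0.072 SE), Spry2 (0.23 ± 0.073 SE) and Spry4 (-0.46 ± 0.33 SE) were not called. Calls in this list numbered 1 to 3 when 1 array was left out and 0 without the variance trend. Jun kept its call in all 4 of those fits (adjusted p 0.0121 to 0.0197, limma), Ier3 (0.00333 to 0.118) and Klf6 (0.0344 to 0.202) each in 1, and Fos (0.0824 to 0.21) and Atf3 (0.0711 to 0.167) in 0.

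In the integrated stress response list 6 of 33 were called higher in line 1 (18.2%, beside 1.41% of all genes): Stc2, Atf3, Ddit4, Gpt2, Nupr1 and Mthfd2. Calls numbered 2 to 3 when 1 array was left out and 1 without the variance trend. Atf3 (0.0711 to 0.167), Nupr1 (0.0714 to 0.17) and Mthfd2 (0.131 to 0.19) lost their call in all 4 fits without an array and Gpt2 in 3 (0.0339 to 0.216, all adjusted p from limma). Ddit4 stands in the hypoxia list too, and Atf3 among the immediate early genes. Stc2 had the second largest difference among genes higher in line 1, 285 and 234 in line 1 against 56.5 and 55.5 in line 3 (1.99 ± 0.20 SE, adjusted p = 0.000303, limma), and stayed called in each of 17 alternative analyses. The size rested on the reported probe set: the 2 other Stc2 probe sets differed by 0.884 and 0.0959, neither called, and averaging all 3 gave 0.99 (adjusted p = 0.0305, limma). Atf4, the factor at the centre of this response, differed by 0.13 ± 0.064 (SE), its partner Ddit3 by 0.13 ± 0.12 and its target Asns by 0.14 ± 0.051, and none of the 3 passed the test. In insulin and IGF signalling 2 of 19 were called (10.5%, beside 1.41% of all genes). These were Igf2 (352 and 294 in line 1 against 197 and 182 in line 3) and the binding protein Igfbp4. The call of Igf2 was lost in all 4 fits that left out an array (adjusted p 0.0793 to 0.243, limma), and that of Igfbp4 in 1 (0.0196 to 0.0557) and with its probe sets averaged, at 0.43 (adjusted p = 0.45, limma).

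**Figure D4:**
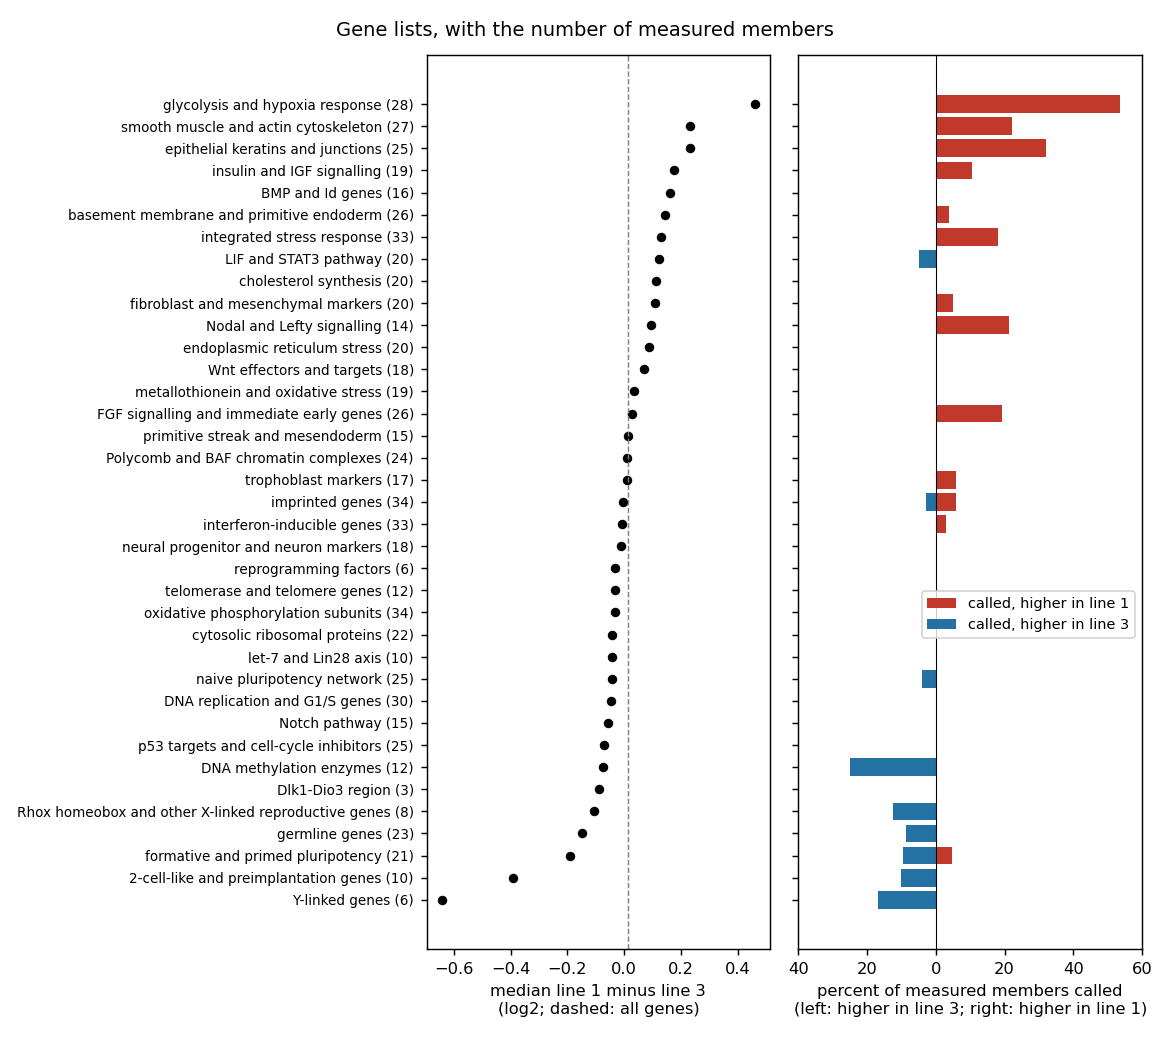
For each of 37 gene lists, the left panel gives the median line 1 minus line 3 difference over measured members (log2 scale, dashed line at 0.0154 for all genes) and the right panel the percent of measured members called, to the right where line 1 was higher and to the left where line 3 was higher. Glycolysis and hypoxia genes stand at the top with a median of 0.46 and Y-linked genes at the bottom with -0.641.

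The genes with the largest differences in favour of line 1 were partly dim ones outside these groups. Sncb, beta-synuclein, a neuronal protein, headed the ranking at 147 and 302 in line 1 against 50.2 and 10.5 in line 3 (2.58 ± 0.45 SE, adjusted p = 0.015, limma). Its replicates differed about as widely within a line as many called genes did between lines, and its call was lost without the second array of line 1 or of line 3 (adjusted p 0.00481 to 0.149 over the 4 fits). Prkch, a protein kinase C isoform, read 102 and 103 in line 1 and was under the floor in both arrays of line 3, at least 2.77-fold higher in line 1 (adjusted p = 0.0216, limma). Frem2, an extracellular matrix protein of epithelia, read 155 and 161 in line 1 against 55.4 and 27.8 in line 3, and the zinc finger gene Zfp667 513 and 401 in line 1 against 160.1 and 189 in line 3. Zfp667 lost its call only without the variance trend (adjusted p = 0.127, limma), while Prkch (0.0155 to 0.134) and Frem2 (0.00626 to 0.0828) each lost it in 3 of 4 fits that left out an array.

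Gbp2, an interferon-induced GTPase, read 165 and 119 in line 1 against 37.6 and 26.3 in line 3 (1.80 ± 0.37 SE, adjusted p = 0.0341, limma), and was lost in all 4 fits without an array (adjusted p 0.0919 to 0.27). With all probe sets averaged it differed by 1.25 (adjusted p = 0.151, limma). It was the 1 called gene of 33 measured interferon-inducible genes (3.03%, beside 1.41% of all genes), whose median difference was -0.00777. Its promoter window, shown above, held the interferon-stimulated response element 59 bases before the start. That motif was found in 13 of 29 measured interferon-inducible genes with a promoter (44.8%) and in 3.0% of tested genes, so 12 listed genes with it were not called.

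Higher in line 3 were 49 genes, led by dim ones. Tpbgl, related to trophoblast glycoprotein, read 8.31 and 18.2 in line 1 against 68.2 and 115 in line 3, at least 2.38-fold higher in line 3 (adjusted p = 0.0327, limma). Scrt1, a zinc finger repressor of neurons, was at least 2.11-fold higher with 12.4 and 14.9 in line 1 against 66.8 and 92.1 in line 3, and Cbfa2t3, a transcriptional corepressor, at least 2.14-fold with 15.7 and 14.9 in line 1 against 98.7 and 63.8 in line 3. Exoc3l, an exocyst-related gene, was at least 2.86-fold higher with 24.2 and 33.9 in line 1 against 94.7 and 119 in line 3. In these 4 genes both arrays of line 1 were below the floor, and all 4 lost their call in each of the 4 fits that left out an array (adjusted p 0.0702 to 0.252 for Tpbgl, 0.097 to 0.207 for Scrt1, 0.102 to 0.259 for Cbfa2t3 and 0.0993 to 0.249 for Exoc3l, limma). Averaging all probe sets of Cbfa2t3 gave -1.03 (adjusted p = 0.349, limma). In ES cells and line 2 their signals were above the floor as well, for Scrt1 61.5 and 62.7 in ES cells and 70.6 and 52.4 in line 2, so line 1 was the low one of the 4 groups.

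Transcripts of the 2-cell-like state and of preimplantation embryos had no positive difference. Of 10 measured members 1 was called, higher in line 3 (10%, beside 1.41% of all genes). In 8 both arrays of line 3 were above both of line 1 (19.9% of all genes were), and the median difference was -0.393. List medians against ES cells were -0.763 for line 1, -0.0186 for line 3 and -0.58 for line 2, so line 3 was near the ES level and line 1 below it. Usp17la, a deubiquitinase, read 86.6 and 73.3 in line 1 against 219 and 261 in line 3 (-1.45 ± 0.20 SE, adjusted p = 0.00293, limma) and lost its call without the second array of line 3 (adjusted p 0.0181 to 0.0511 over the 4 fits). Arg2, mitochondrial arginase, read 17.4 and 26.5 in line 1 against 73.3 and 80.5 in line 3 (adjusted p = 0.0982, limma) and Tcstv1, a transcript specific to the 2-cell stage, 34.8 and 49.7 in line 1 against 89.1 and 76.4 in line 3 (adjusted p = 0.291, limma). Obox6, an oocyte homeobox gene, read 388 and 376 in line 1 against 489 and 472 in line 3, with 1061 and 1112 in the ES arrays. Usp17la belongs to a family of near-identical copies, so its probe set may measure several of them, and the Zscan4 genes that mark the 2-cell-like state were not measured here.

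A pair of called genes with clone names lies between Tcstv1 and Tcstv3, and was picked out after the values were seen. AF067061 read 79.4 and 129 in line 1 against 353 and 414 in line 3 (-1.79 ± 0.21 SE, adjusted p = 0.000973, limma) and Gm20767 57.9 and 43.5 in line 1 against 150.0 and 171 in line 3 (-1.47 ± 0.30 SE, adjusted p = 0.0332, limma). Gm20767 lost its call in all 4 fits that left out an array (adjusted p 0.105 to 0.186, limma), with no filter on dim genes and without the variance trend, and AF067061, measured in 16 of the 17 alternatives, only without the variance trend. In the RefSeq order of chromosome 13 on GRCm38.p6, 28 annotated genes run from Tcstv1 to Tcstv3. Of these 28, 3 were measured, namely Tcstv1, Gm20767 and AF067061. All 3 had both arrays of line 3 above both of line 1, as 19.9% of all genes did. Gm20767 and AF067061 are the called pair that led to this stretch, so their placing was known before, and Tcstv1 was not called. Against ES cells, line 1 differed by -0.72, -1.185 and -1.40 in these 3 genes in turn, and line 3 by 0.094, 0.28 and 0.40. This cluster also consists of near-identical copies, so its 3 probe sets may measure some of the same transcripts. BC080696, on chromosome 5, read 64.4 and 67.1 in line 1 against 243 and 268 in line 3 (-1.78 ± 0.21 SE, adjusted p = 0.000955, limma). It was the 1 gene higher in line 3 that stayed called in each of the 17 alternative analyses.

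DNA methylation enzymes were called in 3 of 12 measured members (25%, beside 1.41% of all genes), all higher in line 3. These 3 are the enzymes that set new methylation and their cofactor. Dnmt3l, the cofactor, read 1838 and 1818 in line 1 against 2592 and 2595 in line 3 (-0.50 ± 0.07 SE, adjusted p = 0.00298, limma). Dnmt3b read 8844 and 8537 in line 1 against 11417 and 12648 in line 3 (-0.47 ± 0.073 SE, adjusted p = 0.00681, limma) and Dnmt3a 2501 and 2257 in line 1 against 3187 and 2924 in line 3 (-0.36 ± 0.079 SE, adjusted p = 0.0469, limma). In each of the 3 genes the mean of line 3 was the highest of the 4 groups and that of line 2 the lowest, with 897 and 864 for Dnmt3l in line 2. Line 3 had the highest mean in 43 of all 49 genes called higher in line 3. Dnmt1, which copies methylation at replication, differed by -0.087 ± 0.063 (SE), its guide Uhrf1 by -0.068 ± 0.063 and the demethylating dioxygenase Tet1 by -0.13 ± 0.064, and none of these passed the test. The call of Dnmt3b was lost in 3 of 4 fits that left out an array (adjusted p 0.0165 to 0.0851, limma), and that of Dnmt3l in none (0.0344 to 0.0382). The call of Dnmt3a was lost in 11 alternatives, among them quantile normalization, and 2 of its 4 other probe sets differed by 0.0351 and 0.0341, opposite in sign. Counts for the list were 1 to 2 when 1 array was left out and 0 without the variance trend.

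All 6 measured members of the Y-linked list had lower signals in line 1, with both arrays of line 1 below both of line 3 in each (19.9% of all genes were so placed). The median difference was -0.641, and 1 member was called (16.7%, beside 1.41% of all genes). List medians against ES cells were -0.145 for line 1, 0.662 for line 3 and 0.529 for line 2. The called gene was Uba1y, a ubiquitin-activating enzyme, at 299 and 277 in line 1 against 551 and 556 in line 3 (-0.91 ± 0.12 SE, adjusted p = 0.00198, limma). Uba1y lost its call without the variance trend (adjusted p = 0.0762, limma). A second Uba1y probe set, with a mean signal of 145.8, differed by -0.412 and was not called. Eif2s3y, a translation initiation factor subunit, read 886 and 958 in line 1 against 1188 and 1195 in line 3 (adjusted p = 0.0594, limma), the demethylase Kdm5d 231 and 279.6 in line 1 against 311 and 349.6 in line 3, and Uty 427 and 442 in line 1 against 559 and 458 in line 3. Sry and Zfy2 were below the floor in line 1, and one of the 2 arrays of line 3 was below it for Sry (65.9 and 11.7). The other 4 listed genes were above the floor in both lines, which the labels give as male. Outside the list, 1 more Y gene was measured, Orly, which read 77.3 and 69.2 in line 1 against 65.2 and 77.4 in line 3 with overlap between the lines, and over all 7 genes of the Y chromosome the median was -0.367. Over the other chromosomes median differences lay between -0.0154 on X and 0.0402 on chromosome 13.

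**Figure D5:**
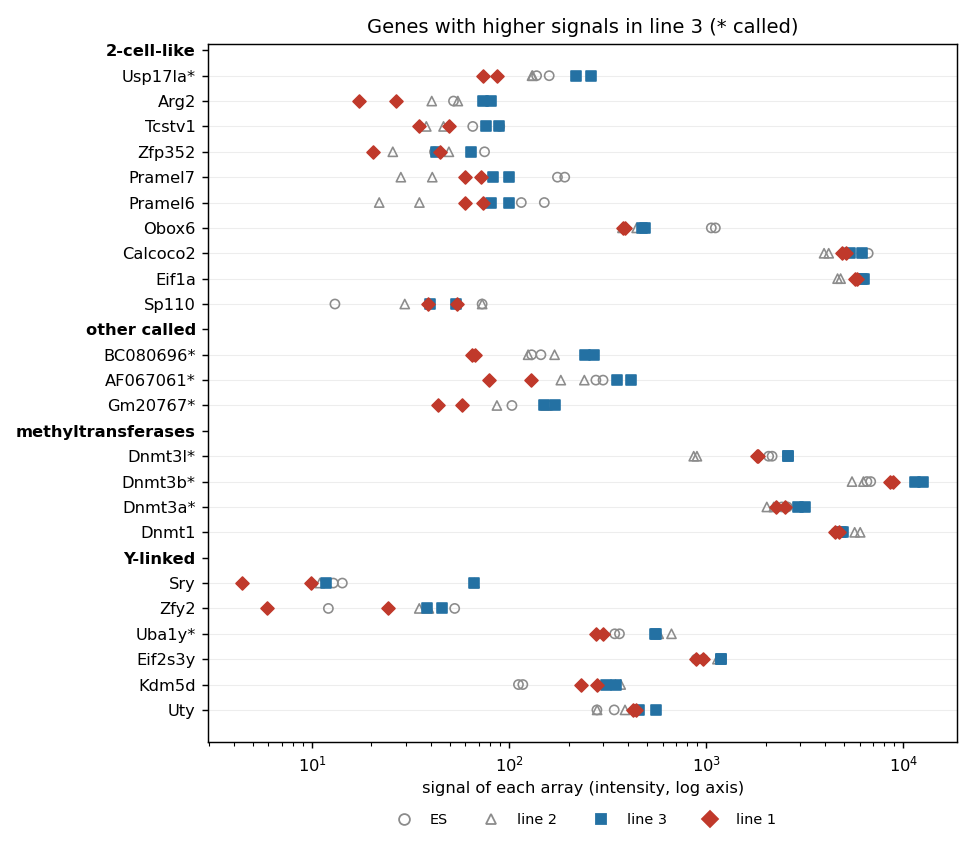
Signals of 2-cell-like genes, 3 called clone-named genes, DNA methyltransferases and Y-linked genes in each array, on a log axis of intensity, with called genes starred. Line 3 (blue) lies to the right of line 1 (red) in nearly every gene, by over 2-fold in Usp17la, AF067061, BC080696 and Gm20767 and by less than 2-fold in the 3 called methyltransferase genes.

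Of 23 measured germline genes 2 were called, both higher in line 3, Rhox5 and Dnmt3l (8.7%, beside 1.41% of all genes), and the median difference was -0.148. Both calls were lost without the variance trend. Dnmt3l is counted among the methylation enzymes too. Rhox5 was also the 1 called gene of 8 in the list of Rhox homeobox and other X-linked reproductive genes (12.5%, beside 1.41% of all genes). Rhox5, a homeobox gene of the X chromosome, was bright and tight, 6548 and 6599 in line 1 against 9903 and 9460.2 in line 3 (-0.56 ± 0.058 SE, adjusted p = 0.000334, limma). Outside the germline list, Fmr1nb, an X-linked gene of testis, read 1167 and 1277 in line 1 against 2293 and 2173 in line 3 (-0.86 ± 0.087 SE, adjusted p = 0.000303, limma), and Zp3, a glycoprotein of the egg coat, 389.5 and 416 in line 1 against 645 and 697 in line 3. The germ cell helicase Ddx4 (-0.099 ± 0.093 SE) and the RNA-binding protein Dazl (-0.28 ± 0.10 SE) did not pass the test. Rhox5 and Fmr1nb were lost only without the variance trend, and Zp3 also in all 4 fits without an array (adjusted p 0.0503 to 0.105, limma).

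Other called genes for line 3 had mixed roles. Smtnl1, a smoothelin-like protein of muscle, read 662 and 453 in line 1 against 1331 and 1063 in line 3 (-1.10 ± 0.17 SE, adjusted p = 0.00679, limma), beside 1279.8 and 1299.5 in ES cells. Kctd7, an adaptor protein, read 305 and 274 in line 1 against 494 and 561 in line 3, the aldo-keto reductase Akr1b8 613 and 616 in line 1 against 1046 and 987 in line 3, and Trh, the precursor of thyrotropin-releasing hormone, 1230.1 and 987 in line 1 against 1761 and 1615 in line 3. Zfp991, a zinc finger gene, read 2049 and 1973 in line 1 against 3003 and 2783 in line 3, a call that was lost when all its probe sets were averaged. Leaving out single arrays ended the calls of Smtnl1 in 2 fits (adjusted p 0.00629 to 0.0711, limma), of Trh in 3 (0.0197 to 0.149) and of Kctd7 in 4 (0.0711 to 0.166). With all probe sets averaged, Kctd7 differed by -0.45 (adjusted p = 0.402, limma). Manba, a lysosomal mannosidase, was the 1 called member of 25 measured genes of the naive pluripotency list (4%, beside 1.41% of all genes). It read 6067 and 6001 in line 1 against 8197 and 8507 in line 3 (-0.47 ± 0.06 SE, adjusted p = 0.00191, limma).

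Little of the core and naive pluripotency network was called. None of the 6 reprogramming factors was called. Pou5f1 read 11571 and 10681 in line 1 against 11391 and 11226 in line 3, and the 95% interval of its difference ran from -0.16 to 0.11. Sox2 read 12674 and 12696 in line 1 against 12855 and 13183 in line 3, with an interval from -0.16 to 0.09, and Nanog 15098 and 13616 in line 1 against 15066 and 13889.5 in line 3, with an interval from -0.17 to 0.15. All 3 intervals lay inside 0.253 in either direction, the size of the smallest difference called. Klf4 read 16847 and 17006 in line 1 against 14183 and 15057 in line 3 (0.21 ± 0.057 SE, adjusted p = 0.101, limma), without overlap between the lines. Klf4 gained a call with quantile normalization and with all probe sets averaged. Myc read 353 and 296 in line 1 against 426 and 320.3 in line 3 (-0.19 ± 0.17 SE). The 25 measured genes of the naive network had a median difference of -0.0435, with Esrrb at -0.058 ± 0.09 (SE), Zfp42 at -0.19 ± 0.076 and Dppa3 at 0.20 ± 0.11. Of 21 measured genes of formative and primed pluripotency 3 were called (14.3%, beside 1.41% of all genes), and the median difference was -0.19. These were Dnmt3b and Dnmt3a, higher in line 3, and Krt18, higher in line 1, all described above.

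The imprinted Dlk1-Dio3 transcripts, whose silencing has been described in some mouse iPS lines, were present in both. Meg3 read 4409 and 3968 in line 1 against 4371 and 4487 in line 3, Rian 2496 and 2617 in line 1 against 2909 and 2537 in line 3 and Mirg 428 and 414 in line 1 against 487 and 467 in line 3. Their differences of -0.082 ± 0.083, -0.087 ± 0.081 and -0.18 ± 0.16 (SE) did not pass the test. Of 34 measured imprinted genes 3 were called (8.82%, beside 1.41% of all genes). Igf2 and the amino acid transporter Slc38a4 were higher in line 1 and Impact, a regulator of translation, was higher in line 3. Each lost its call in all 4 fits that left out an array. Differences in those fits ran from 0.606 to 0.855 for Igf2, 0.284 to 0.339 for Slc38a4 and -0.341 to -0.279 for Impact.

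No member was called in 17 of the 37 lists. Among the larger of these were oxidative phosphorylation subunits (34 measured, median -0.0338), DNA replication and G1/S genes (30, -0.0462), p53 targets and cell-cycle inhibitors (25, -0.0722), Polycomb and BAF complexes (24, 0.0113), cytosolic ribosomal proteins (22, -0.0412), endoplasmic reticulum stress genes (20, 0.0886) and cholesterol synthesis genes (20, 0.114). The number of arrays limits what these counts can show. In simulated data for this comparison, with 14004 genes, 67 genes were shifted by 0.5 log2 units, 67 by 1 and 66 by 2. Of these shifts limma found 52.2%, 59.7% and 86.4%, and it made 14 false calls among the genes without a shift. The simulated noise was normal, with the variances that limma had estimated, so real arrays may give more false calls.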

How the data were processed

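Total RNA of 8 samples was measured on Affymetrix arrays with biotin-labelled cRNA, per the labels' protocols. The authors deposited 1 linear intensity per probe set and array, computed with MAS5 per the submitters' processing notes. Its version and scaling target: not given in the sources used here. Signals were used as deposited. The platform annotation gave 1 gene symbol to 34945 probe sets, several to 932 and none to 9160. A probe set had to exceed 37.1, the 40th percentile of all signals, in at least 2 of 8 arrays, and the one with the highest mean stood for its gene. Values were taken as log2(signal + 12), 12 being about the 20th percentile. Group means over all 8 arrays were fitted in limma 3.58.1 (R 4.3.3, eBayes with an intensity trend), with 4 residual and 12.4 moderated degrees of freedom. Tests are two-sided. If the lower line did not exceed 37.1 in either array, 37.1 took its place and the fold is given as "at least". With 2 arrays a line, precision is limited by their number, and an exact permutation test could not go below p = 0.333.

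The comparison, the 37 gene lists and the rule for named genes were chosen with earlier results of these data known. The rule takes the 14 largest called differences in each direction, clone names passed over, up to 4 members of each list by smallest p, and the reprogramming and Dlk1-Dio3 genes. Further list members and clone-named genes were named after their values were seen. Lists are described by counts and medians only. Genes were matched to RefSeq promoters (GRCm38.p6) by symbol, 11275 of 14004. Numbers in the labels did not pair the arrays: replicate differences of line 1 and line 3 correlated at r = 0.0196 over genes. The procedure was tested on simulated data. The 17 alternatives covered normalization, pseudocount, filter, choice of probe set, variance model, arrays fitted, a replicate block and leaving out each array.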

Additional observations from a re-analysis of the deposited data

Results flagged for a closer look

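Probe sets with no gene symbol or several symbols stand outside the gene comparison, and 24 of 5232 such probe sets past the low-signal floor were called between line 1 and line 3 when all probe sets were fitted together in limma (adjusted p under 0.05). Of these, 7 were higher in line 1 and 17 higher in line 3, whereas probe sets with 1 symbol were called in 0.699% of cases against 0.459% here. Their part in the gene results was not tested.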

How the results depend on the processing

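All 198 differences came from 2 arrays a line. Without the intensity trend in the variance 17 genes were called (14 higher in line 1, 3 higher in line 3). Leaving out 1 array gave 52 to 94 calls, 37 to 74 higher in line 1 and 15 to 22 higher in line 3. Such a fit leaves 1 line with a single array, assumed to vary like the other groups. For genes higher in line 3 the count was 31 with no filter on dim genes and 32 when probe sets of a gene were averaged. Every other alternative kept the 3 counts within 1.5 times. The replicate block gave 199 calls, of which 180 were shared with the unpaired fit. No called gene named in the report changed sign in any of the 17 alternatives, and 9 called genes kept their call in all of them: Stc2, Ankrd37, Bhlhe40, Bnip3, Ero1a, Egln3, Krt8 and Krt18 higher in line 1 and BC080696 higher in line 3. Over all 198, 3 genes changed sign, each when all probe sets were averaged. Another probe set existed for 111 called genes, and 182 of 214 such probe sets had the same sign as the one reported.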

Other observations

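Called genes outside the lists, picked out after their values were seen, include these higher in line 1. Cotl1, which binds actin filaments, read 1767 and 1643 in line 1 against 952 and 948 in line 3, and the tubulin Tubb6 1036 and 1108 in line 1 against 707 and 713 in line 3. With all probe sets averaged, Cotl1 differed by 0.47 (adjusted p = 0.0973, limma) and Tubb6 by 0.38 (adjusted p = 0.313, limma). Fabp5, a fatty acid binding protein, read 4478 and 4301 in line 1 against 3330.2 and 3203 in line 3. Pmp22, a membrane protein known from myelin, read 212 and 166 in line 1 against 74.7 and 79.2 in line 3, and the small heat shock protein Cryab 248 and 226 in line 1 against 107 and 102 in line 3. Leaving out single arrays ended the calls of Pmp22 (adjusted p 0.0823 to 0.225, limma) and Cryab (0.064 to 0.131) in all 4 fits, those of Tubb6 (0.0271 to 0.0532) and Fabp5 (0.0238 to 0.0564) in 1 and that of Cotl1 in 0.

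Higher in line 3 were Gja1, the gap junction protein connexin 43, at 8003 and 8842 in line 1 against 11202 and 10888 in line 3, Glul, glutamine synthetase, at 2724 and 3187 in line 1 against 3992 and 4160.1 in line 3, and the spermidine synthase Srm at 6994 and 6737 in line 1 against 8296 and 8532 in line 3. Differences were small in these 3 genes, -0.39, -0.47 and -0.29 on the log2 scale, with adjusted p of 0.00723, 0.0146 and 0.0388 (limma). Their calls were lost in 2, 3 and 4 of the fits that left out an array (adjusted p 0.015 to 0.0957, 0.015 to 0.135 and 0.135 to 0.207), and those of Gja1 and Glul also with all probe sets averaged.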
